A study of Mus musculus with 2 samples.

Results

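The E13.5 germ cells with high Pmaip1 were 281 of the 2549 germ cell barcodes in the E13.5 library, and of 5839 barcodes in the whole series. They were chosen by a count of transcripts: a germ barcode entered the set when 3 or more unique molecular identifiers (UMIs, 1 per captured transcript) mapped to Pmaip1. A barcode counted as a germ cell when it had at least 500 genes, at least 5000 UMIs, under 10% mitochondrial UMIs, and at least 0.2% of its UMIs on Dazl, Pou5f1, Dppa3 and Dppa5a together. The other E13.5 germ barcodes were 1149 with 1 or 2 Pmaip1 UMIs and 1119 with none.

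The study profiled male germ cells of mouse embryos of the outbred strain CD1 at 2 embryonic ages, E12.5 and E13.5, with 1 droplet library (10x v2 chemistry, a 3' assay) for each age. Cells had been sorted by FACS for the Oct4-GFP reporter, green fluorescent protein driven from the Pou5f1 (Oct4) locus or its regulatory sequence, so both libraries come from embryos that carry the reporter and from cells sorted for it. No treatment and no targeted gene is named. The labels do not say how many embryos were pooled, and with 1 library an age and its library cannot be told apart, so no test and no p-value is given anywhere below.

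Pmaip1 encodes NOXA, a small BH3-only protein that binds the survival protein MCL1 and favours release of BAX and BAK at the mitochondrion. The gene is a known target of p53 and of stress-activated transcription factors. In the fetal testis some germ cells die by a BAX-dependent route while the survivors leave the cell cycle and switch on a male programme that includes Nanos2. The question here is what else these cells expressed, beside germ cells of the same library and depth in which no Pmaip1 transcript was caught.

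The number of Pmaip1 UMIs in an E13.5 germ barcode fell off evenly, with no gap at the limit of 3. There were 1119 barcodes with 0 UMIs, 747 with 1, 402 with 2, 164 with 3, 82 with 4, 23 with 5, 9 with 6, 2 with 7 and 1 with 8. Barcodes just inside the limit, with exactly 3 UMIs, had a summed level of 110 CPM (counts per 1000000 UMIs; 95% Poisson interval 100 to 120). Barcodes just outside, with exactly 2, had 81.5 CPM (75.9 to 87.3). These values chose the cells and are a description only.

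**Figure D1:**
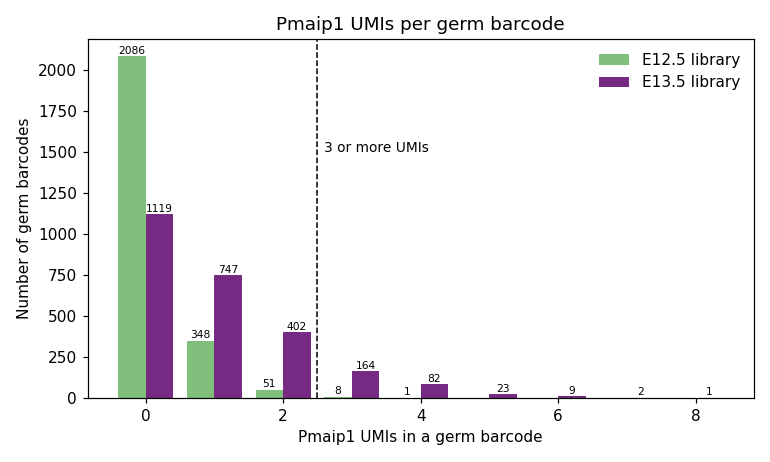
Number of germ barcodes (y axis) by Pmaip1 UMIs per barcode (x axis) in the E12.5 (green) and E13.5 (purple) libraries, with the count printed on each bar. The dashed line marks the limit of 3 UMIs, which 281 barcodes reached at E13.5 and 9 at E12.5; the E13.5 counts run from 1119 at 0 to 1 at 8 UMIs without a gap.

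Among the 281 cells, the Pmaip1 level per barcode ranged from 37.7 to 352 CPM with a median of 135 CPM. All E13.5 germ barcodes together had 43.7 CPM (42.0 to 45.4) and all E12.5 germ barcodes 8.0 CPM (7.30 to 8.75). Over E13.5 germ barcodes thinned to 10000 UMIs each, the variance of Pmaip1 over its mean was 1.09, against a median of 1.03 for 947 genes within 20% of its level. Of those genes, 87.4% had a lower value than Pmaip1. The set is thus defined as a range of a count, with 402 barcodes at 2 UMIs and 164 at 3 next to the limit, and is not given a cell type name.

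Depth moved with the rule. The Pmaip1-high barcodes had a median of 26559 UMIs, those with 1 or 2 Pmaip1 UMIs 22648, and those with none 20135. Thinned to 10000 UMIs, 227 of 280 Pmaip1-high barcodes kept a Pmaip1 UMI (81.1%, exact binomial 95% interval 76.0 to 85.5), as did 614 of 1137 of those with 1 or 2 (54.0%, 51.1 to 56.9). Both groups were chosen by their Pmaip1 counts, so the order of these 2 shares was set by the rule. In the 32 E13.5 barcodes that fell under the germ marker limit, with a median of 10808.5 UMIs, there was 1 Pmaip1 UMI in all (2.67 CPM, 0.0675 to 14.9), and 1 of 22 had it after thinning (4.55%, 0.115 to 22.8). In the 11 E12.5 barcodes under that limit there were 6 Pmaip1 UMIs (48.6 CPM, 17.8 to 106), above the level of the E12.5 germ barcodes. Among those 11 the median per barcode was 0 CPM and the highest was 630 CPM, so the summed level rested largely on 1 barcode. The summed order of germ and other barcodes was opposite at the 2 ages, but on too few barcodes to be read.

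Each Pmaip1-high barcode was therefore paired with an E13.5 germ barcode with 0 Pmaip1 UMIs and a total within 5%. This gave 273 pairs with medians of 26258 and 26242 UMIs, and 8 of the 281 found no partner. The summed counts were 7353125 UMIs in the high set and 7302161 in the zero set. Intervals on ratios below are exact conditional binomial 95% intervals of these sums. They cover counting error only, not the spread among cells, embryos or libraries.

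Germ cell markers were mostly alike in both sets. The 4 germ markers made up a median of 0.672% of UMIs in the high set and 0.690% in the zero set, and the mitochondrial share was 4.60% and 4.52%. Dazl, the RNA-binding protein that licenses germ cells, was at 1237 and 1084 CPM (ratio 1.14, 1.11 to 1.18), and Ddx4, a germ cell helicase, at 146 and 133 CPM (1.10, 1.0 to 1.20). Pou5f1, whose reporter sorted the cells, was at 686 and 729 CPM (0.941, 0.905 to 0.978). Dppa5a, also part of the germ rule, was at 1778 and 2219 CPM (0.801, 0.783 to 0.820), close to the lower limit. None of these was 25% higher or 20% lower, the limits of size used below. Every barcode had to pass the limit on the summed 4 markers, so a like share was partly set by the rule.

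Markers of other cell types were low and alike in both sets, with 1 exception. Summed Sertoli cell markers were at 13.6 CPM in the high set and 14.4 in the zero set, macrophage markers at 0.952 and 1.23, and surface epithelial markers at 8.84 and 11.2. Fetal Leydig, interstitial and mural markers were each at 1.10 CPM or less in both sets. Endothelial markers (34.7 and 39.9 CPM) and mesonephric markers (312 and 317 CPM) rested mostly on Pecam1 and Epcam, which germ cells also express. Summed haemoglobin and other erythroid genes were at 1673 and 23.1 CPM. This came from 1 Pmaip1-high barcode with 40322 UMIs and 3 Pmaip1 UMIs, of which 30.1% were erythroid. Counts below are given with it, and without it 180 genes were past these limits on the higher side and 122 on the lower, against 179 and 120 with it.

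The doublet caller Scrublet marked 27 of 2670 scored E13.5 barcodes, 6 of them Pmaip1-high. Of 24 barcode sequences listed in both libraries, 10 (41.7%) were Pmaip1-high at E13.5 and 5 (20.8%) were germ barcodes with 0 Pmaip1 UMIs. Those 10 had medians of 41912 UMIs at E13.5 and 720.5 at E12.5. Of all 2992 E13.5 barcodes, 281 were Pmaip1-high and 1119 were germ barcodes with 0 Pmaip1 UMIs. Pmaip1-high barcodes were thus a larger share of the shared barcodes and of the Scrublet calls than of the library. The cause was not tested. Without the 24, 180 genes were past the limit higher and 130 lower.

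Most genes were at the same level in Pmaip1-high and matched zero cells. Of 4991 genes at 20 CPM or more over all E13.5 germ barcodes, 179 (3.59%) were at least 25% higher in the high set and 120 (2.4%) at least 20% lower. These limits are 1 ratio read in either direction and are called the size limit from here on. At 1.5-fold these were 19 (0.381%) and 21 (0.421%). The median log2 ratio over all genes was 0.0028, and the central 90% of genes lay between -0.25 and 0.28, beside a median half-width of the counting interval of 0.21. The lowest 2 of all 4991 ratios belonged to neighbouring X-linked homeobox genes, Rhox9 and Rhox6.

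**Figure D2:**
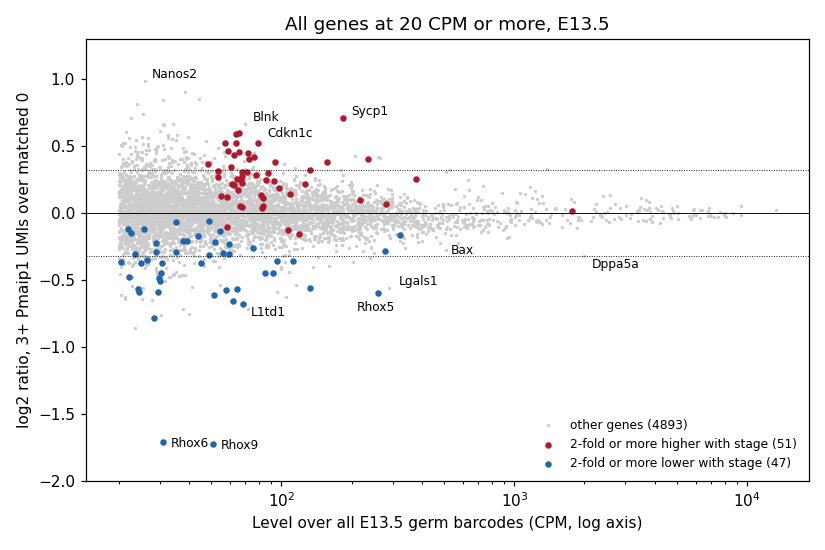
Log2 ratio of summed CPM in 273 Pmaip1-high over 273 depth-matched Pmaip1-zero E13.5 germ barcodes (y axis) against the level over all E13.5 germ barcodes (x axis, log scale), 1 point per gene, dotted lines at 25% higher and 20% lower. Red and blue points are genes 2-fold or more higher or lower with stage, which lie mostly above and below 0; 3 haemoglobin genes, raised by 1 barcode, lie above the axis.

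The Rhox genes of the reproductive homeobox cluster, which fetal germ cells of this age express and then shut down, set the cells apart most. Rhox9 (chromosome X, 37899097 to 37901770, minus strand, GRCm38) was at 22.4 CPM in the high set and 74.2 CPM in the zero set, a ratio of 0.302 (0.252 to 0.361). A Rhox9 UMI was found in 84 of 273 Pmaip1-high barcodes (30.8%) and in 146 of 273 matched barcodes (53.5%). The most in 1 barcode was 12 UMIs in the high set and 27 in the zero set. The sets overlapped barcode by barcode, since the median was 0 UMIs in one and 1 in the other.

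Rhox6, which lies on the same chromosome (37826910 to 37829857, plus strand), was at 14.4 and 47.2 CPM (ratio 0.305, 0.243 to 0.380), with a UMI in 66 and 119 of 273 barcodes. Rhox5, the founding gene of the cluster (37804842 to 37808876, plus strand), was at 200 and 302 CPM (0.661, 0.619 to 0.707). It was found in nearly every barcode of both sets, 259 and 264 of 273, with medians of 4 and 6 UMIs. Rhox9 and Rhox6 are close relatives, and how far reads map to both was not tested, so their levels are uncertain.

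L1td1, an RNA-binding protein of pluripotent cells derived from a LINE-1 element, was at 57.1 CPM in Pmaip1-high cells and 91.6 CPM in matched cells (0.623, 0.551 to 0.705). Pdgfa, a growth factor, was at 45.3 and 71.4 CPM (0.635, 0.552 to 0.730). Arpc1b, a subunit of the actin-nucleating ARP2/3 complex, was at 39.0 and 59.7 CPM (0.654). The fatty acid binding gene Fabp5, the tRNA splicing gene Tsen34, brain creatine kinase Ckb and the lectin Lgals1 stood between 0.670 and 0.677 of the matched level. Kit, the receptor that carries survival signals in primordial germ cells, was at 15.4 and 23.8 CPM (0.645, 0.504 to 0.822).

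Haemoglobin genes aside, the highest ratio among genes at 50 CPM or more was that of Sycp1, a component of the synaptonemal complex that fetal male germ cells transcribe without entering meiosis. Sycp1 was at 239 CPM in the high set and 146 CPM in the zero set, a ratio of 1.63 (1.51 to 1.76). The median was 6 UMIs per barcode against 3, and 254 of 273 Pmaip1-high barcodes had at least 1, beside 230 of 273. Its partner in the synaptonemal complex, Sycp2, was at 24.8 and 17.3 CPM (1.43, 1.14 to 1.81), while Stra8, the gatekeeper of meiosis, was near 0 in both (1.36 and 1.78 CPM). Of 10 meiosis genes these 2 were past the size limit higher and none lower, beside 3.59% and 2.4% of all genes.

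Nanos2, the RNA-binding regulator that drives male fate and suppresses meiosis, was at 30.6 and 15.5 CPM (1.98, 1.57 to 2.5). It was detected in 45.8% of Pmaip1-high barcodes and 28.9% of matched barcodes. After thinning to 10000 UMIs the shares were 27.2% (22 to 32.9) and 11.0% (7.57 to 15.4), and 0 of 22 barcodes under the germ marker limit had a Nanos2 UMI. Nanos3, its relative that protects migrating germ cells, was at 64.5 and 47.1 CPM (1.37, 1.19 to 1.58).

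Others among the 12 highest included Tgif1, a corepressor of Nodal and TGF-beta signalling, at 77.4 and 51.5 CPM (1.5, 1.32 to 1.72), and Ipp, a kelch-domain gene, at 80.5 and 53.3 CPM (1.51, 1.33 to 1.72). Blnk, the adaptor protein of B cell receptor signalling, was at 105 and 66.1 CPM (1.58, 1.41 to 1.78) and was found in 224 and 197 of 273 barcodes. Cdkn1c, the imprinted cell cycle inhibitor p57, was at 96.7 and 67.4 CPM (1.44, 1.28 to 1.61). Ptgr1, a prostaglandin reductase, and Kpna2, an importin, both had a ratio of 1.43. The secreted Wnt antagonist Sfrp1 (1.38) and the germline ubiquitin protease Usp26 (1.37) followed.

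Of the postmigratory germ cell genes, those that germ cells switch on after reaching the gonad, 3 of 15 measured were past the size limit and none lower, beside 3.59% of all genes, and the list's median log2 ratio was 0.19. Brdt, a testis bromodomain protein, had a ratio of 1.53 (1.26 to 1.86) and Tex15, needed for piRNA-guided silencing, 1.35 (1.18 to 1.55). Of 12 piRNA pathway genes, Gtsf1 alone was past the size limit (40.7 and 27.8 CPM, 1.46, 1.22 to 1.76), with a list median of 0.16; 1 of 12 is near the share over all genes. The male germline list had a median of 0.21 over 7 genes, with Nanos2 higher and Lefty2, an inhibitor of Nodal signalling, lower at 84.9 and 108.9 CPM (0.779, 0.701 to 0.867).

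Many of these genes differ between the 2 ages, so the difference was set against stage. Stage genes were taken from cells outside both sets: the E13.5 barcodes with 1 or 2 Pmaip1 UMIs against all E12.5 germ barcodes, at 2-fold or more and 50 CPM or more. Of these, 51 were higher and 59 lower at E13.5. All of those E13.5 barcodes held Pmaip1, while 2086 of 2494 E12.5 germ barcodes held none, so the lists mix age with Pmaip1 status. Of the 51, 17 were past the size limit higher in Pmaip1-high cells and 0 lower, beside 3.59% and 2.4% of all genes, with a median log2 ratio of 0.25. Of the 47 stage-lower genes at 20 CPM or more, 26 were past the size limit lower and 0 higher, with a median of -0.36.

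Summed over each list, stage-higher genes made up 7009 CPM in Pmaip1-high cells and 6130 CPM in matched cells (ratio 1.14, 1.13 to 1.16). Stage-lower genes made up 2633 and 3499 CPM (0.753, 0.739 to 0.767). By these lists, which mix age with Pmaip1 status, Pmaip1-high cells lay further from E12.5 toward E13.5 than matched cells of the same library. Of the 179 genes past the size limit higher, 17 were in the stage-higher list, and of the 120 lower 26 were in the stage-lower list. Those lists took only genes at 50 CPM or more, while the 179 and 120 were counted from 20 CPM. At a minimum of 50 CPM over all E13.5 germ barcodes, 38 genes were past the size limit higher and 34 lower.

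A stage score per barcode, the mean log level of the stage-higher genes minus that of the stage-lower genes, showed the same. Its median was 0.403 in Pmaip1-high barcodes (interquartile range 0.282 to 0.515, range -0.161 to 0.715) and 0.249 in matched barcodes (0.0816 to 0.400, range -0.432 to 0.722). In all, 215 of 273 Pmaip1-high barcodes (78.8%) were above the matched median. The ranges overlapped almost whole, and the upper ends were alike; the lowest Pmaip1-high score was above the lowest matched ones.

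The share of Pmaip1-high barcodes followed the score. Over quartiles of the score, with 621 E13.5 barcodes in each, the Pmaip1-high share was 5.31% (3.69 to 7.38) in the lowest, 10.8% (8.46 to 13) in the next, 14.3% (11.7 to 17.3) in the third and 14.7% (12 to 17.7) in the highest. Median depth was 22518, 23270, 22012 and 20507 UMIs, so the deepest quartile was not the one with the most. With each barcode thinned to 10000 UMIs, the share with any Pmaip1 UMI was 26.1%, 33.5%, 38.0% and 37.8%. The upper 2 quartiles did not differ beyond their intervals.

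**Figure D3:**
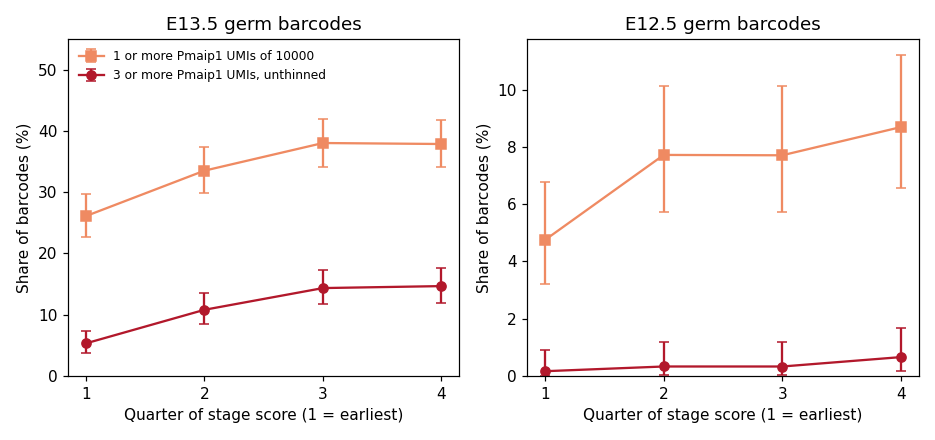
Share of germ barcodes with 3 or more Pmaip1 UMIs (dark red circles) and with 1 or more after thinning to 10000 UMIs (orange squares), in percent (y axis, scaled separately in each panel), by quartile of the stage score (x axis) at E13.5 (left) and E12.5 (right), with exact binomial 95% intervals. At E13.5 the share with 3 or more UMIs is 5.31% in the lowest quartile and 14.7% in the highest; at E12.5 the thinned share is 4.75% and 8.69%.

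Levels also went with the number of Pmaip1 UMIs in barcodes of like depth. Among E13.5 germ barcodes of 20000 to 30000 UMIs, Rhox9 was at 76.1 CPM in 456 barcodes with 0 Pmaip1 UMIs, 54.8 in 363 with 1, 31.9 in 194 with 2, 25.5 in 65 with 3, 37.0 in 38 with 4 and 8.91 in 18 with 5 or more. Sycp1 was at 141, 174, 190, 198, 277 and 234 CPM in the same order, and Nanos2 at 18.7, 25.8, 31.3, 27.3, 30.2 and 49.0 CPM. The step for Rhox9 was seen already between 0, 1 and 2 UMIs, whose intervals did not overlap (71.1 to 81.5, 50 to 60.0 and 27.0 to 37.4 CPM). Above 2 UMIs the intervals overlapped between most neighbours.

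Blnk had another shape. Its level was 57.9, 64.4 and 67.7 CPM at 0, 1 and 2 Pmaip1 UMIs, then 114, 90.7 and 89.1 CPM at 3, 4 and 5 or more. The summed stage-lower genes were at 3596, 3150, 2903, 2785, 2685 and 2069 CPM across the 6 classes, and the summed stage-higher genes at 6057, 6466, 6775, 6743, 7140 and 7387 CPM. Both lists thus moved over the whole range of Pmaip1 UMIs, apart from 1 step of the stage-higher sum, between 2 and 3 UMIs. The barcodes with 1 or 2 Pmaip1 UMIs also chose those lists, so the steps from 0 to 1 and 2 are not separate from that choice.

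**Figure D4:**
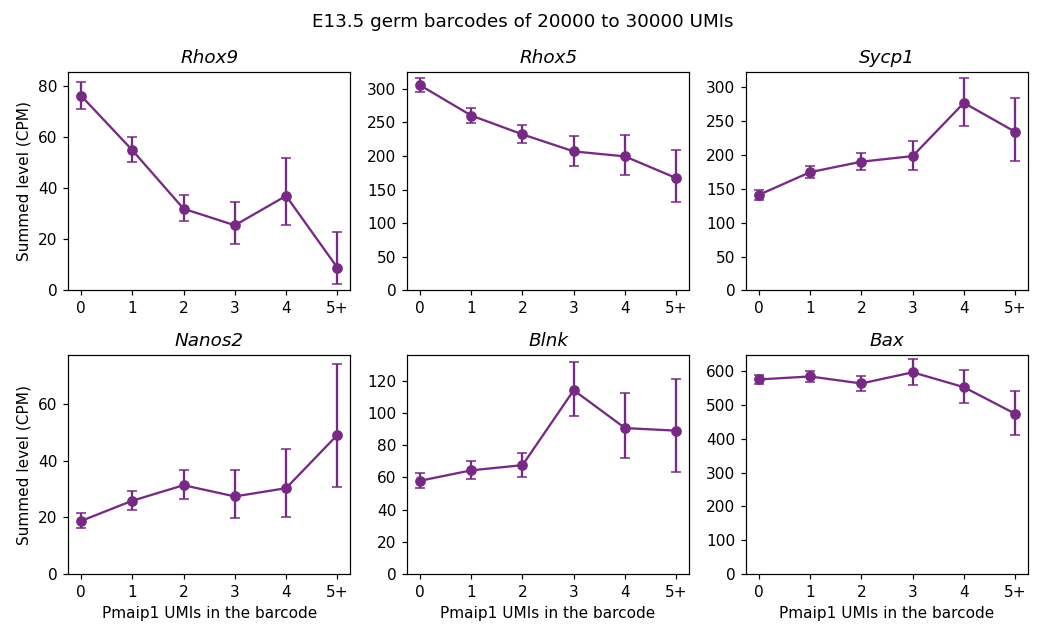
Summed level in CPM (y axes) of 6 genes by Pmaip1 UMIs per barcode (x axes) in E13.5 germ barcodes of 20000 to 30000 UMIs, with 95% Poisson intervals; the 5+ class holds 18 barcodes. Rhox9 and Rhox5 are mostly lower and Sycp1 and Nanos2 mostly higher with more Pmaip1 UMIs, Blnk is higher from 3 UMIs on, and Bax lies between 474 and 597 CPM.

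Barcodes that the limit of 3 left out gave a separate look at the same direction. The barcodes with 1 or 2 Pmaip1 UMIs were paired by depth with the 846 zero barcodes not used above, which gave 768 pairs. Past the size limit were 12 genes higher (0.24%) and 7 lower (0.14%). Rhox9 had a ratio of 0.630 (0.570 to 0.695), Rhox6 0.540 (0.474 to 0.614), Rhox5 0.844 (0.808 to 0.881), Sycp1 1.19 (1.13 to 1.26), Nanos2 1.26 (1.10 to 1.44) and Tgif1 1.28 (1.17 to 1.39).

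The differences were smaller there but mostly in the same direction. Of the 179 genes higher in Pmaip1-high cells, 146 had a ratio above 1 in this set, and of the 120 lower, 97 had a ratio below 1. The stage lists had medians of 0.11 and -0.17 on the log2 scale; the barcodes with 1 or 2 UMIs also chose those lists. Blnk was 1.06 (0.967 to 1.16) and Cdkn1c 1.07 (0.986 to 1.16), so their higher level was seen mainly at 3 or more UMIs.

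**Figure D5:**
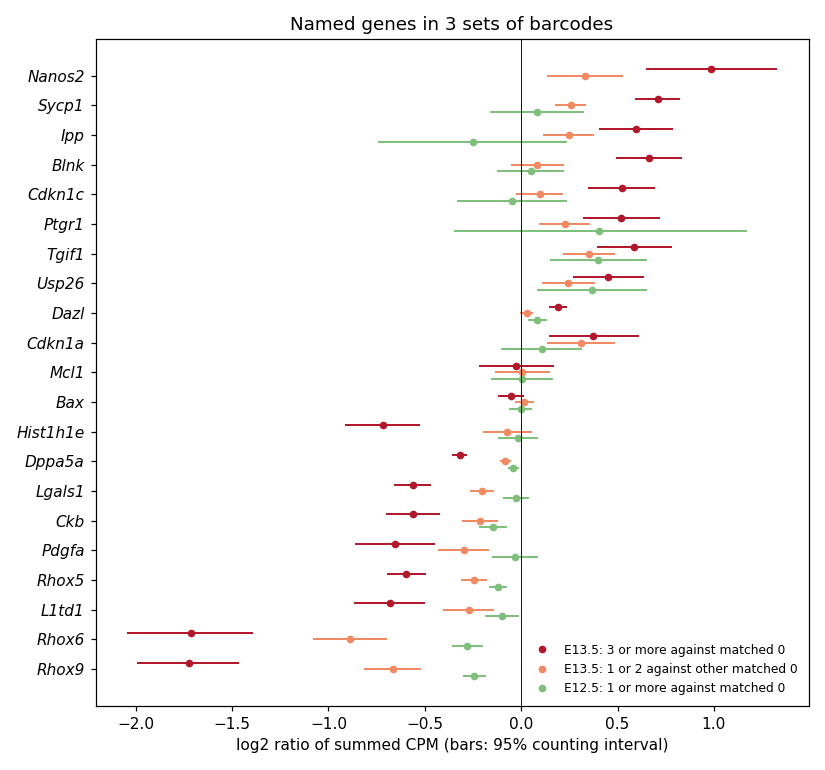
Log2 ratio of summed CPM (x axis, bars are 95% counting intervals) for 21 genes (y axis) in 3 sets: E13.5 barcodes with 3 or more Pmaip1 UMIs (red), E13.5 barcodes with 1 or 2 against other zero barcodes (orange) and E12.5 barcodes with 1 or more (green, no point for Nanos2, which had under 3 UMIs per group). Rhox9 and Rhox6 lie lowest in both E13.5 sets. At E12.5 Rhox6 lies lowest, followed by Ipp (0.839, 0.599 to 1.17) and Rhox9 (0.845). Bax and Mcl1 lie near 0, and Sycp1 and Nanos2 lie highest among the red points.

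The measured genes of the death pathway around NOXA did not pass the size limit. Bax, the effector that permeabilises mitochondria, was at 565 CPM in Pmaip1-high cells and 586 CPM in matched cells (0.964, 0.923 to 1.01), with medians of 14 and 15 UMIs per barcode. Mcl1, the protein that NOXA binds, was at 62.8 and 64.0 CPM (0.982, 0.862 to 1.12). Bcl2l1, which encodes BCL-XL, was at 23.4 and 21.9 CPM (1.07, 0.856 to 1.33). Bbc3, the related BH3-only gene PUMA, was near the floor at 2.72 and 2.47 CPM, and its interval of 0.554 to 2.21 leaves a wide range.

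None of the 3 measured pro-apoptotic genes (Bax, Bnip3 and Bnip3l), the 2 survival genes or the 8 caspase, apoptosome and inhibitor genes was past the size limit, beside 3.59% higher and 2.4% lower of all genes. The caspase list had a median log2 ratio of 0.01, which turned below 0 under TMM scaling. Cycs, the cytochrome c that the apoptosome binds, was at 350 and 346 CPM (1.01, 0.956 to 1.07). Diablo, an antagonist of caspase inhibitors, was at 139 and 148 CPM (0.942, 0.864 to 1.03). The interval of each of these 2 holds a ratio of 1.

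Of 15 measured p53 targets other than Pmaip1, 1 was past the size limit higher and none lower, which is near the 3.59% and 2.4% of all genes. It was Cdkn1a, the cell cycle inhibitor p21, at 49.9 and 38.5 CPM (1.3, 1.11 to 1.52). The list's median log2 ratio was 0.04, while its summed level was lower in Pmaip1-high cells (0.934, 0.910 to 0.958), led by its most abundant member Rps27l (877 and 997 CPM, 0.880). Trp53 itself was at 150 and 170 CPM (0.885, 0.815 to 0.960), and Mdm2, its inhibitor and target, at 68.5 and 64.2 CPM (1.07, 0.939 to 1.21). In the 35 barcodes with 5 or more Pmaip1 UMIs the Cdkn1a ratio to matched zeros was 0.796 (0.509 to 1.24), a log2 ratio of -0.33. That interval holds 1.

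In stress pathways that can raise Pmaip1 few genes were past the size limit, beside 3.59% higher and 2.4% lower of all genes. Of 16 integrated stress response genes, Phgdh of serine synthesis (1.36, 1.07 to 1.72) and Wars, a tRNA synthetase (1.27, 1.03 to 1.55), were higher and the amino acid transporter Slc7a5 lower (0.718, 0.572 to 0.901), with a list median of -0.03. Of 14 endoplasmic reticulum folding genes only Sdf2l1 was past the size limit, and it was lower (0.768, 0.616 to 0.955). Of 15 DNA damage and replication stress genes only Chek1 was, the replication checkpoint kinase, lower at 27.3 and 39.0 CPM (0.700, 0.582 to 0.842). Single genes in lists of 14 and 15 are near the share over all genes. None of 11 heat shock chaperones and none of 3 immediate early genes was past it.

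Of 36 S phase genes 7 were past the size limit lower and none higher, beside 2.4% and 3.59% of all genes, with a median log2 ratio of -0.21 and a summed ratio of 0.875 (0.860 to 0.890). The largest difference was Rrm2, the ribonucleotide reductase subunit made in S phase, at 19.7 and 34.0 CPM (0.581, 0.470 to 0.716). Of 49 G2/M genes 3 were higher and none lower, near the share over all genes, with a median of 0.13 and a summed ratio of 1.08. They were Cdc20, an activator of the anaphase-promoting complex (270 and 201 CPM, 1.34, 1.26 to 1.44), the mitotic kinesin Kif23 and the ubiquitin ligase G2e3 (1.36). In the barcodes with 1 or 2 Pmaip1 UMIs no gene of either list was past the size limit, and both medians were slightly below 0 (S phase -0.04, G2/M -0.03), so the G2/M median turned its sign there.

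Replication-dependent histone transcripts were among the 12 lowest. Hist1h1e was at 50.6 and 83.3 CPM (0.608, 0.533 to 0.692), Hist1h2ap at 81.2 and 125.6 CPM (0.647, 0.582 to 0.718) and Hist1h1b at 69.1 and 104.2 CPM (0.663, 0.591 to 0.743). In the barcodes with 1 or 2 Pmaip1 UMIs these ratios were 0.952, 0.985 and 0.995, so the histone difference was not seen there. Within the 273 pairs, a UMI was found in 127 and 140 barcodes for Hist1h1e, 143 and 161 for Hist1h2ap, and 121 and 147 for Hist1h1b. Medians were 0 or 1 UMI in every case, so the sums rested on the barcodes with many UMIs (up to 29 in 1 barcode). Mki67, a marker of cycling cells, was at 106 and 113 CPM (0.939, 0.850 to 1.04).

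Over quartiles of cell cycle lists, depth and the Pmaip1-high share were read side by side. The Pmaip1-high share was 10.1%, 7.73%, 9.69% and 17.3% from the lowest to the highest quartile of the G2/M share of UMIs, while median depth went from 19546 to 26638 UMIs. Thinned to 10000 UMIs, the share with 1 or more Pmaip1 UMIs was 38.4%, 30.4%, 31.3% and 35.2%, with the lowest quartile on top. The 2 shares differ in limit (3 or more UMIs against 1 or more) as well as in depth, so which of these changed the order was not tested. For S phase the thinned shares were 38.2%, 35.8%, 32.3% and 29.6%, so fewer cells with the highest S phase share held Pmaip1. Paired within quartiles of the summed cell cycle share, 140 genes were higher (2.81%) and 102 lower (2.04%). There the S phase median was -0.22 with 5 of 36 genes lower, while the G2/M median came to 0.07 with 1 of 49 higher. The stage lists had medians of 0.22 and -0.30.

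Pluripotency genes did not move as 1 group. Of 18 measured, L1td1, Tdh, a threonine dehydrogenase (83.5 and 110.7 CPM, 0.755), and Klf2 were past the size limit lower, and none was higher, with a median log2 ratio of 0.02. The summed ratio of 0.906 followed the most abundant member, Dppa5a, an RNA-binding protein of early germ cells, at 1778 and 2219 CPM (0.801, 0.783 to 0.820). Of 11 primordial germ cell genes the 3 Rhox genes were lower and Nanos3 higher, with Dppa3, the oocyte and germ cell factor Stella, at 3022 and 2918 CPM (1.04, 1.02 to 1.06).

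Energy and chromatin genes were close to 1. None of 9 glycolysis, 28 nuclear oxidative phosphorylation, 12 mitochondrially encoded or 15 DNA methylation and chromatin genes was past the size limit, with list medians of 0.01, -0.07, 0.04 and -0.03. The glycolysis median turned below 0 under TMM scaling. Of 6 imprinted genes Cdkn1c and Ndn were higher. No member of the short FGF and BMP response lists (3 and 2 genes) was past the size limit.

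At E12.5 high Pmaip1 was rare. Only 9 of 2494 germ barcodes had 3 or more UMIs, 8 with 3 and 1 with 4. Against 9 matched barcodes, 1427 of 5028 genes (28.4%) were past the size limit higher and 1314 (26.1%) lower, so single genes in so few cells cannot be read. The comparison was therefore widened to the 408 barcodes with 1 or more Pmaip1 UMIs, each paired by depth, where 20 genes (0.398%) were higher and 20 (0.398%) lower.

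In that E12.5 comparison Rhox9 was at 473 and 559 CPM (0.845, 0.814 to 0.877), Rhox6 at 253 and 307 CPM (0.824, 0.783 to 0.868) and Rhox5 at 825 and 896 CPM (0.920, 0.894 to 0.947). Tgif1 was at 30.3 and 22.9 CPM (1.32, 1.11 to 1.56). Sycp1 was at 28.3 and 26.7 CPM (1.06, an interval that holds 1), and Nanos2 had under 3 UMIs in a set. Lefty1 and Lefty2 were higher with Pmaip1 at E12.5 (1.22, 1.12 to 1.33, and 1.11, 1.05 to 1.17), while at E13.5 Lefty1 was 1.02 and Lefty2 0.779.

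The stage lists had E12.5 medians of 0.08 and -0.08, though the E12.5 barcodes helped choose those lists. The thinned Pmaip1 share was 4.75% (3.21 to 6.76) in the lowest quartile of the stage score and 7.72%, 7.70% and 8.69% in the next 3. Lower Rhox9 and Rhox6 with Pmaip1 was thus seen in both libraries, nearer to 1 at E12.5. Whether the ratios of the libraries differ was not tested.

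Pairing by depth within quartiles of the stage score removed most of the differences. Of the 281 cells, 254 found a partner, and 90 genes were higher (1.8%) and 38 lower (0.761%). Of the 179 genes above, 44 were still past the size limit and 171 still had a ratio above 1; of the 120 lower, 16 were still past it and 105 below 1. The stage lists came to 0.02 and -0.06, as the pairing itself brings about. Nanos2 came to 1.13 (0.918 to 1.39), Sycp1 to 1.14 (1.06 to 1.23), Cdkn1c to 0.996 and L1td1 to 1.02 (0.884 to 1.18). Sycp1, Cdkn1c and L1td1 are in the score, so the pairing itself brings about part of their move toward 1.

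What remained past the size limit at like stage included Blnk at 1.49 (1.32 to 1.68), Cdkn1a at 1.3 (1.10 to 1.54), Kpna2 at 1.28 (1.13 to 1.46), Cdc20 at 1.28 (1.19 to 1.37) and Tgif1 at 1.26 (1.11 to 1.44). Of the 90 higher genes, 44 were also past the size limit before this pairing. The Nodal inhibitor Lefty1, at 1.02 (0.939 to 1.10) before it, came to 1.3 (1.19 to 1.42). Rhox9 at 0.686 (0.553 to 0.847) and Rhox6 at 0.680 (0.521 to 0.885) were still lower, though both are in the score. Of 49 G2/M genes 5 were higher and none lower, beside 1.8% and 0.761% of all genes, with a median of 0.14. The S phase median came to -0.02, with 2 of 36 genes lower. Rrm2 of the S phase list is in the score as well. Bax (1.02, 0.971 to 1.06) and Mcl1 (1.01) were level at like stage as well.

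Within the 281 cells, those with more Pmaip1 UMIs had higher stage scores. The median score was 0.368 in the 164 with 3 UMIs, 0.422 in the 82 with 4 and 0.442 in the 35 with 5 or more, at median depths of 26082, 27409 and 27959 UMIs. Against their own 35 matched zeros, the cells with 5 or more had stage list medians of 0.37 and -0.68. Sycp1 there was at 273 and 120 CPM (2.28, 1.83 to 2.87) and Blnk at 123 and 60.9 CPM (2.02, 1.46 to 2.80). Across the 281 cells the Pmaip1 CPM had a Spearman correlation of 0.173 with the stage score and -0.797 with total UMIs, the latter sharing its denominator.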

How the data were processed

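The authors deposited 1 table of raw UMI counts per gene and barcode for each library (59842242 UMIs at E13.5, 60383440 at E12.5). Per the submitters' processing notes, Cell Ranger and mm10 (GRCm38) were used; version and annotation are not given in the sources used here. Gene positions are from GENCODE on GRCm38. At E13.5, 231 barcodes had under 500 genes, 155 under 5000 UMIs and 25 at least 10% mitochondrial UMIs; 32 of 2581 left were under the germ marker limit.

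Barcodes were paired without replacement on total UMIs without Pmaip1, counts were summed per set, and CPM ratios were computed (numpy 2.4.6, scipy 1.17.1), leaving out Pmaip1. Doublets were called with Scrublet in scanpy 1.11.5 (expected rate 0.06) and kept; TMM factors came from edgeR 4.0.16. With 1 library per age no test was possible; the limits of 25% higher and 20% lower are classes of size. The members, lists and rules were chosen with earlier results of these data known, so no list is independent support.

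Genes named by rule were the 12 highest and 12 lowest ratios at 50 CPM or more with an interval clear of 1 (predicted, haemoglobin, mitochondrial and ribosomal protein genes aside), each list's most abundant gene and its 2 highest and 2 lowest genes, and 15 preset genes. Genes outside it (Kif23, Klf2) were named after their values were seen. Intervals were tested on simulated counts with the depths of the 273 pairs. There, 1.21% of 4791 unchanged genes were past the size limit in either direction from counting alone. Marker lists covered germ, erythroid and mural cells, macrophages, endothelium, Sertoli, Leydig and interstitial cells, and surface and mesonephric epithelium. Alternatives covered pairing, depth, the limit of 3, doublets, scaling, cell filter, weighting and minimum level.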

Additional observations from a re-analysis of the deposited data

How the results depend on the processing

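No paired analysis was possible because each age has 1 library. Numbers of genes past the size limit differed between alternatives, for which the cause was not tested. At E13.5, against 179 higher and 120 lower, they were 98 and 105 without depth pairing (the share higher going from 59.9% to 48.3%), 147 and 149 with 2 or more Pmaip1 UMIs of 10000 (49.7%), 368 higher and 282 lower after thinning to 10000 UMIs, 887 and 797 for 5 or more Pmaip1 UMIs (35 pairs), 399 and 304 at a minimum of 10 CPM, 38 and 34 at 50 CPM, and 182 lower with 2000 genes and under 5% mitochondrial UMIs. Paired within quartiles of the stage score they were 90 and 38, with a share higher of 70.3%. In the barcodes with 1 or 2 Pmaip1 UMIs they were 12 and 7. At E12.5 they were 2170 and 2013 at 10 CPM, 601 and 521 at 50 CPM, and 20 and 20 with 1 or more UMIs; 5 or more could not be run there, as no barcode reached it.

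Under TMM scaling the numbers were 158 and 140. The stage-higher median was 0.021 at like stage and lay between 0.11 and 0.37 in the other alternatives. The stage-lower median was -0.061 at like stage, -0.68 with 5 or more UMIs, and between -0.40 and -0.17 in the others. Neither list changed sign in any alternative run.

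Single genes changed side as follows, on the log2 scale. At like stage these were Cdkn1c (-0.0060), C1ql1 (-0.058), L1td1 (0.030), Fabp5 (0.20), Phgdh (-0.0054), Sdf2l1 (0.047), Tex15 (-0.087), Gtsf1 (-0.037) and Lefty2 (0.11). With 1 or 2 UMIs they were Fabp5 (0.014), Wars (-0.010), Sdf2l1 (0.052), Cdc20 (-0.020), Cdkn2d (0.038), Hbb-bs (-0.12) and Hbb-y (-0.0041). With 5 or more UMIs they were Cdkn1a (-0.33), Hbb-bs (-0.59) and Hbb-y (-0.00035). Hbb-bs was -0.92 with 2 or more UMIs of 10000, and -0.092 without barcodes above the 95th percentile of UMIs, as was Hba-a1 at -0.0019. Without the erythroid barcode Hbb-bs, Hba-a1 and Hbb-y were -0.081, -0.052 and -0.0087, so that barcode set their ratios. For the other genes the cause was not tested. Of those that changed side at like stage, Cdkn1c, C1ql1, L1td1, Fabp5, Tex15 and Lefty2 are in the stage score itself.

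The sets with 1 or 2 UMIs at E13.5 and 1 or more at E12.5, and the runs without shared barcodes or without the erythroid barcode, were chosen after seeing the data. A count of 0 Pmaip1 UMIs in a barcode does not show absence of the transcript, so the zero set also holds cells that express it.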

Other observations

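Some genes under the 50 CPM needed for naming had larger ratios than most genes described above, and they were chosen after their values were seen. Egr4, a zinc finger transcription factor, was at 52.6 CPM in Pmaip1-high cells and 28.2 CPM in matched cells (1.87, 1.57 to 2.22), with 1.38 (1.23 to 1.55) in the barcodes with 1 or 2 Pmaip1 UMIs and 1.35 (1.14 to 1.59) at like stage. Krt17, a keratin, was at 56.4 and 31.4 CPM (1.80, 1.53 to 2.12), and at like stage its ratio was 1.15 (0.990 to 1.34). Tex21, a testis-expressed gene, was at 31.8 and 18.1 CPM (1.76, 1.42 to 2.20).

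Otx2, a homeobox factor of brain and early germ cell fate, was at 42.7 and 27.1 CPM (1.57, 1.31 to 1.89). At like stage it was 1.54 (1.27 to 1.86), in the E13.5 barcodes with 1 or 2 Pmaip1 UMIs 1.22 (1.07 to 1.39), and at E12.5 its level was 12.3 and 9.59 CPM (1.28, 0.984 to 1.68).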
